A study of Mus musculus with 12 samples.

Results

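The expression of 6 chemokine ligand and receptor genes was followed through single cells of MC38 tumors: Ccl17 and Ccl22 with their receptor gene Ccr4, Ccl1 with its receptor gene Ccr8, and Ccr7. They were taken by name and made up 6 of the 26938 gene symbols with at least 1 count in 93126 cells. MC38 is a mouse colon carcinoma line of C57BL/6 origin. Tumors were grown under the skin of female hosts that were either C57BL/6J (B6) or the F1 offspring of C57BL/6J and 1 of 7 Collaborative Cross strains, inbred lines bred from 8 founder strains (CC001, CC002, CC007, CC036, CC075, CC079 and CC080). At 75 to 110 mm3 each host received a single 200 µg injection of anti-PD-1 (aPD1, clone 29F.1A12) or of an isotype antibody (clone 2A3), and the tumor was taken 48 hours later. The study classed CC001, CC002 and CC075 as responder strains and CC036, CC079 and CC080 as non-responder strains from tumor growth in other animals. B6 and CC007 had no class here. The classed tumors numbered 10 (responder, isotype), 10 (responder, aPD1), 9 (non-responder, isotype) and 9 (non-responder, aPD1), and 10 tumors were unclassed.

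CCL17 and CCL22 are secreted by dendritic cells and macrophages and draw cells that carry CCR4, among them T helper 2 cells and regulatory T cells (Treg). CCL1 is made by activated T cells and signals through CCR8, a receptor known for its high level on Treg inside tumors. CCR7 guides mature dendritic cells out of tissue to the lymph node, and naive and central memory T cells carry it too. The 6 transcripts thus bear on which cells call Treg into a tumor, which cells can answer, and which dendritic cells are ready to leave.

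Ccl22 (chr8:94745590-94751699) and Ccl17 (chr8:94810453-94812036) lay on the plus strand of the same chromosome in GRCm38, with 58753 bases and 1 protein-coding gene, Cx3cl1, between them. Ccl1 (chr11:82176657-82305690) and Ccr7 (chr11:99144196-99155077) were on the minus strand of chromosome 11. Ccr4 (chr9:114490316-114504916, minus strand) and Ccr8 (chr9:120092114-120094906, plus strand) were on chromosome 9. None of the 6 gene models overlapped another gene. The Ccl1 model spans 129034 bases, and the RefSeq start site used for its promoter lies inside it and not at its upstream end. The same holds for Ccr4, whose promoter window (chr9:114496495-114496794) lies within its gene model. RefSeq promoter sequence (GRCm38.p6, 250 bases before to 50 bases after the start site) was at hand for all but Ccr7. The promoters of the 3 ligands are shown, since Ccl22 and Ccl17 had their highest levels in dendritic clusters and Ccl1 in T cell clusters. Capitals mark matches, on either strand, to an NF-kappaB pattern (GGG and CC with 5 free bases between) or a STAT6 pattern (TTC and GAA with 4 free bases between):
Ccl22, chr8:94745434-94745733, plus strand: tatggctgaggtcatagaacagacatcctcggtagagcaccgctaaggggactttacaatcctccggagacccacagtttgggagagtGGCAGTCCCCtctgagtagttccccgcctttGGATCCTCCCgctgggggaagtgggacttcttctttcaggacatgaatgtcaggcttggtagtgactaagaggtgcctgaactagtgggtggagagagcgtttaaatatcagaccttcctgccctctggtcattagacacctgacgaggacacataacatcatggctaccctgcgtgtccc
Ccl17, chr8:94810203-94810502, plus strand: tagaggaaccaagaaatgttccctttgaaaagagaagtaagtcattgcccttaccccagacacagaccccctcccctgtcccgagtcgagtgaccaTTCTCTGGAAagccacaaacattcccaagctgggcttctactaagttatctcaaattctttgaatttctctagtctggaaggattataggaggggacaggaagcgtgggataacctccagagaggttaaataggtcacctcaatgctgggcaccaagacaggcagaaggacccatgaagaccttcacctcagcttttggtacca
Ccl1, chr11:82179763-82180062, minus strand: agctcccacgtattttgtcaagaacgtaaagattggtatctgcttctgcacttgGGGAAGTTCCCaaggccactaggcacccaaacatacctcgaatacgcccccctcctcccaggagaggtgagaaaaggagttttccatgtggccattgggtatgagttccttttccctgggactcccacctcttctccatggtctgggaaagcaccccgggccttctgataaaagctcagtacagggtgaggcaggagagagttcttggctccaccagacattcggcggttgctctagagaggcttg
The NF-kappaB pattern occurred in the Ccl22, Ccl1 and Ccr8 windows and in 50.8% of all 32851 promoters of that length. The matches of Ccl22 ran from base -162 to -153 and from -131 to -122, and those in Ccl1 overlapped each other on both strands. The STAT6 pattern occurred in the Ccl17 window at -154 to -145 and in 6.95% of all promoters. The AP-1 pattern TGANTCA occurred in the Ccr4 window and in 7.81% of all promoters. These matches describe letters only.

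The cells came from 12 libraries (pools), each with 4 hashtagged tumors from 2 strains and both treatments, sorted to 90% CD45+ and 10% CD45- cells. The authors deposited counts of unique molecular identifiers (UMIs, 1 per captured transcript end) and 27 numbered clusters. A tumor held 53 to 3082 cells and 88816 to 17713491 UMIs, and the median cell held 3333.5 UMIs. The smallest tumor, CC007 with aPD1 in pool 6, had 53 cells and was the tumor at 0 for Ccl17, Ccl22 and Ccl1. Hashtags were never shared between isotype and aPD1 tumors, so tag and treatment cannot be told apart. CC079 was run only in pools 1 to 6, and CC036 and CC075 only in pools 7 to 12, so strain and pool set cannot be told apart for them. The split into pools 1 to 6 and 7 to 12, called library group below, was chosen here by pool number and is named as a batch in no label. Pairs of libraries shared 36 to 122 cell barcodes, and 10.9% of cells carried a barcode also seen in another library. The same animal identifier stood on 2 CC080 tumors, an isotype tumor in pool 3 and an aPD1 tumor in pool 4. The level of a gene is given below as counts per 1000000 UMIs (CPM) after summing over the cells of a cluster or tumor. Each UMI stands for a transcript end whatever the length of the transcript.

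Cluster 11 (1524 cells) had all 7 migratory dendritic cell markers at 100 CPM or more, led by Cd83 at 1629 CPM, Fscn1 at 1290 CPM and Il12b at 775 CPM, and is called migratory DC-like. Cluster 14 (4981 cells) had 4 of 5 cDC2 markers at that level, with Cd209a at 267 CPM, and is called cDC2-like. The cDC2 marker below 100 CPM was Flt3, at 39.9 CPM against 255 CPM in cluster 11. In cluster 14, 5 of 7 macrophage markers also reached 100 CPM, led by Lyz2 at 1734 CPM. Cluster 8 (2206 cells) had 6 of 7 Treg markers at that level, with Foxp3 at 247 CPM, and is called Treg-like. Clusters 1, 10, 12 and 13 had 5 of those 7 markers at that level, with Foxp3 at 30.7 CPM in cluster 13. Both CD8 markers also passed 100 CPM in cluster 8 (Cd8a 121 and Cd8b1 120 CPM), beside Cd4 at 119 CPM. A Foxp3 UMI was found in 850 of its cells. Cluster 10 (625 cells) was a CD4 T cell-like cluster, with Cd4 at 482 CPM and Foxp3 at 7.37 CPM. There 2 of 5 markers of T helper 2 and group 2 innate lymphoid cells reached 100 CPM, Il13 at 341 CPM and Gata3 at 123 CPM. Clusters 3 (2809 cells) and 13 (631 cells) were CD8 T cell-like, with Cd8a at 731 and 483 CPM. Cluster 13 was led by Ifng, Xcl1 and Il2 together with Ccl1. Since the genes that the authors clustered on are not listed and any of the 6 may be among them, their levels by cluster are a description without a test.

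**Figure D1:**
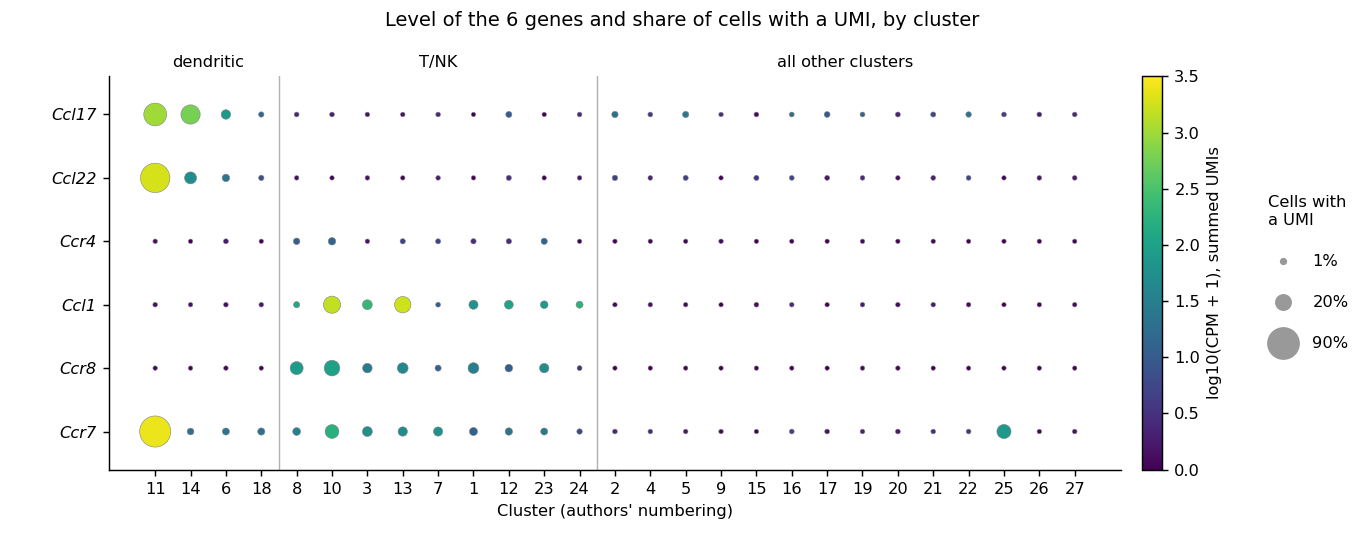
Level of the 6 genes in 27 clusters. Columns are the authors' clusters, color is log10(CPM + 1) of UMIs summed over the cluster, and circle area grows with the percent of cells with at least 1 UMI. Ccl22 and Ccr7 peak in cluster 11, Ccl17 in clusters 11 and 14, Ccl1 in clusters 10 and 13, and Ccr8 in clusters 8 and 10.

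Ccl22 was read mainly in migratory DC-like cells. Cluster 11 held 84.1% of its 14753 UMIs, cluster 14 held 10.1%, and all T/NK clusters together held 0.122%. The level was 1871 CPM in cluster 11 (95% Poisson interval 1838 to 1904, counting error only) and 49.7 CPM in cluster 14. Of cluster 11 cells 81.1% had a Ccl22 UMI (62.1% after thinning each cell to 1000 UMIs, with 5.71% of cells too shallow). In the CD8-like cluster 3, which should lack the gene, 0.142% of cells had one. Median depths were 3652 and 2823 UMIs. In the 46 tumors with at least 20 Ccl22 UMIs, cluster 11 gave 63.7% to 97.1% of them (median 85.9%). It was the majority source in each of the 46.

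Ccl17, the other CCR4 ligand, had a different main source. Cluster 14 held 62.3% of its 27980 UMIs and cluster 11 held 23.4%. In CPM the level was higher in cluster 11 (986 CPM, interval 962 to 1010) than in cluster 14 (582 CPM, interval 574 to 591), but cluster 14 had more cells and deeper ones. A Ccl17 UMI was found in 48.0% of cluster 11 cells and 33.6% of cluster 14 cells, or 33.1% and 19.9% after thinning. The share of a tumor's Ccl17 UMIs that came from cluster 14 ran from 4.76% to 84.7% (median 58.0%, 46 tumors) and passed 50% in 32 of them. Macrophage clusters held 11.0% of Ccl17 UMIs and 4.03% of Ccl22 UMIs. In the macrophage-like clusters 2 and 5, 1.98% and 1.89% of cells had a Ccl17 UMI against 0.178% in cluster 3, and those cells held 4.49 and 4.19 UMIs each on average. The dendritic marker Flt3 was found in 0.533% of the 375 Ccl17-positive cells of cluster 2 and in 0.511% of the rest. Flt3 was low in cluster 14 too (39.9 CPM), so it marks cells of that kind poorly. Cd209a, a cDC2 marker, was found in 1.6% and 0.269% of the same cluster 2 cells. In cluster 5 Cd209a was found in 0.877% of the 228 Ccl17-positive cells and in 0.330% of the rest.

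The balance of both CCR4 ligands thus differed between the dendritic clusters. There were 1.90 Ccl22 UMIs per Ccl17 UMI in cluster 11 and 0.0853 in cluster 14. By tumor the ratio ran from 1.12 to 8.44 (median 1.94) in cluster 11 and from 0 to 0.741 (median 0.0954) in cluster 14. It was higher in cluster 11 in 44 of the 44 tumors with at least 10 cells of both. The cDC1-like cluster 6 stood at 0.293 and the macrophage-like clusters 2 and 5 at 0.185 and 0.155.

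Within cluster 11 the ligands were often found together. Of the 731 cells with Ccl17, 92.9% also had Ccl22, which was found in 81.1% of all cluster 11 cells. Ccr7 was found in 92.9% of those 731 cells as well. Of the 1236 cells with Ccl22, 54.9% had Ccl17, against 18.1% of the rest. Ccl22-positive cells were deeper (median 4000 UMIs against 2352 in the rest), and the part of depth in this overlap was not tested. Within cluster 14, 24.8% of the 1676 Ccl17-positive cells had Ccl22 against 5.23% of the rest, at median depths of 6104.5 and 4908 UMIs. Cd209a, the cDC2 marker, was found in 34.2% and 29.2% of the same cells, and Ccr7 in 3.22% and 2.03%. Both ligands were concentrated in few cells. The top 10% of positive cells held 50.1% of Ccl17 UMIs and 48.6% of Ccl22 UMIs, with up to 218 and 161 UMIs in a single cell.

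Ccr4, the receptor of both ligands, was the sparsest of the 6 genes. It had 161 UMIs in 147 cells of 41 tumors, and 91.8% of those cells had a single UMI. T/NK clusters held 77.0% of the UMIs and the Treg-like cluster 8 alone held 34.2%, or 55 UMIs. The level was 9.31 CPM in cluster 8 (interval 7.01 to 12.1), 12.1 CPM in cluster 10 (7.68 to 18.2) and 12.4 CPM in cluster 23 (3.38 to 31.8), intervals that overlapped. A Ccr4 UMI was found in 2.22% of cluster 8 cells (95% exact binomial interval 1.65% to 2.93%) and in 0.0211% of the deeper cluster 2 cells. Of the 49 Ccr4-positive cells of cluster 8, 5 also had Ccr8 (10.2% against 14.5% of the rest).

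Ccr8 was read in T/NK clusters, which held 98.8% of its 1168 UMIs. The Treg-like cluster 8 held 40.2%, cluster 3 held 20.9% and cluster 10 held 16.1%. In the 22 tumors with at least 20 Ccr8 UMIs, cluster 8 gave 0% to 82.1% of them (median 41.6%) and passed 50% in 10. The level in CPM was highest in cluster 10 (99.0, interval 85.4 to 114), followed by cluster 8 (79.6, interval 72.5 to 87.1), cluster 23 (49.6, interval 28.4 to 80.6), cluster 13 (41.4), cluster 1 (29.4) and cluster 3 (26.1). The intervals of clusters 10 and 8 overlapped. A Ccr8 UMI was found in 21.8% of cluster 10 cells and 14.4% of cluster 8 cells, at median depths of 2519 and 1375.5 UMIs. After thinning to 1000 UMIs the order was the other way, 6.37% and 8.61%, with 7.04% and 29.4% of cells too shallow. No Ccr8 UMI was found in 18964 cells of cluster 2, which allows up to 0.01945% of its cells to hold such a UMI (exact binomial bound, which limits cells with a UMI and not cells expressing the gene). Within cluster 8 the Treg transcription factor Foxp3 was found in 49.4% of the 318 Ccr8-positive cells and 36.7% of the rest, and Il2ra, the IL-2 receptor alpha chain, in 67.0% and 56.7%. Ccr8-positive cells were deeper (2091 against 1303.5 UMIs), and the part of depth was not tested. In cluster 10 Foxp3 was found in 9 of 625 cells. Ccr8 in that cluster was thus read in CD4-like cells nearly without Foxp3 UMIs.

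Ccl1, the ligand of CCR8, was read mainly in other T cells. Clusters 13, 10 and 3 held 33.1%, 28.02% and 19.2% of its 10250 UMIs, 80.4% together. In the 40 tumors with at least 20 Ccl1 UMIs, these clusters gave 0% to 99.5% of them (median 89.3%) and passed 50% in 34. In CC079 most of the 493 Ccl1 UMIs lay elsewhere, 57.6% in cluster 8 and 20.9% in the T/NK cluster 24. Those in cluster 8 were 284 UMIs of 1 cell in 1 isotype tumor. The levels were 1737 CPM (interval 1679 to 1796), 1513 CPM (1458 to 1569) and 210 CPM (201 to 220). Cluster 24 stood at 173 CPM and held 6.91%, and the Treg-like cluster 8 stood at 120 CPM and held 6.93%. By tumor the cluster 8 level had a median of 13.7 CPM and was 0 in 13 of 42 tumors. A Ccl1 UMI was found in 26.4% of cluster 10 cells, 23.9% of cluster 13 cells and 1.77% of cluster 8 cells, and in 0.0738% of cluster 2 cells. The UMIs were concentrated in few cells. The top 10% of positive cells (77 cells) held 58.6% of the UMIs, and 1 cell held 284. There were 41.9 Ccl1 UMIs per Ccr8 UMI in cluster 13, 15.3 in cluster 10, 8.07 in cluster 3 and 1.51 in cluster 8, and 88.5 in cluster 24, where only 8 Ccr8 UMIs were read. Within cluster 13, 83.4% of the 151 Ccl1-positive cells had Ifng against 59.6% of the rest, at median depths of 2802 and 2509.5 UMIs. Within cluster 10 Ccr8 was found in 20% of Ccl1-positive cells and 22.4% of the rest.

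Ccr7, like Ccl22, was read mainly in the migratory DC-like cluster. Cluster 11 held 86.5% of its 19215 UMIs at 2506 CPM (interval 2468 to 2544), and 91.0% of cluster 11 cells had a UMI (79.8% after thinning). Per tumor the share from cluster 11 had a median of 87.3% and ran from 35.7% to 98.8%, with 45 of 47 tumors above 50%. T/NK clusters held 7.81%. Among these cluster 10 was highest (163 CPM), followed by clusters 7 (56.1 CPM) and 3 (53.9 CPM), whose intervals overlapped. Cluster 25, which held markers of more than 1 cell type and was left unnamed, stood at 76.7 CPM. Of the Ccl22-positive cells of cluster 11, 93.0% had Ccr7 against 82.3% of the rest.

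**Figure D2:**
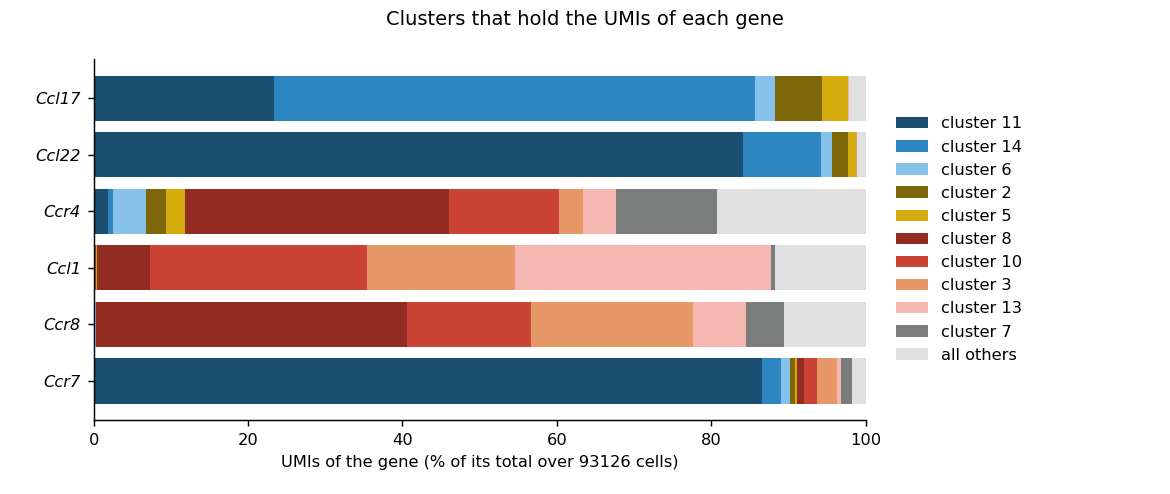
Source of each gene's UMIs. Bars are the percent of a gene's UMIs over all 93126 cells that fell in each cluster, with the remaining clusters in gray. Cluster 11 holds 84.1% of Ccl22, 86.5% of Ccr7 and 23.4% of Ccl17, and Ccl1 and Ccr8 lie almost wholly in T/NK clusters.

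The likeness of profiles over the 27 clusters placed the members among other genes (Pearson's r of log2(CPM + 1), 12360 genes compared, clusters share libraries and depth, no test). The gene most like Ccl17 was Ccl22 (r = 0.90), and the next most like Ccl22 after Ccl17 were Adam23 (0.89), Mpc1 (0.86) and Il12b (0.85). Ccl1 was most like Tnfsf11, which encodes RANK ligand, and Csf2, which encodes GM-CSF (both 0.95). Ccr8 was most like the lncRNA gene Gm48719 (0.97) and near Penk, the proenkephalin gene (0.96). The profile of Ccr4, from few UMIs, was most like B4galnt4 (0.94) and near Cd40lg (0.93). Ccr7 was most like Ly75, the DEC-205 gene (0.87). Between members r was 0.92 for Ccl1 and Ccr8, 0.91 for Ccr4 and Ccr8 and 0.44 for Ccl22 and Ccr7.

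The whole-tumor level of the dendritic genes followed the share of migratory DC-like cells over the 48 tumors. For Ccl22 and the cluster 11 share Pearson's r was 0.87 and Spearman's rho 0.74. For Ccr7 and the cluster 11 share they were 0.84 and 0.88. In both cases the permutation p was 1e-05, the smallest that 100000 permutations can give. For r the adjusted p over 7 relations was 2e-05. Cluster 11 held most UMIs of both genes, so a relation was fixed in advance and no conclusion is drawn from these p-values. Without the 2 tumors farthest from the median share r was 0.76 and 0.89. Within pools 1 to 6 and 7 to 12 it was 0.93 and 0.73 for Ccl22 and 0.84 and 0.88 for Ccr7. For Ccl17 and the cluster 14 share r was 0.33 (permutation p = 0.0255, adjusted p = 0.0297) and rho 0.54 (permutation p = 0.00012, adjusted p = 0.00021). Pearson's r was 0.16 without the 2 farthest tumors, 0.09 within pools 1 to 6 and 0.71 within pools 7 to 12, and so depended on those tumors and on the pools, while rho was computed over all tumors only. With the cluster 11 share Ccl17 had r = 0.68 (permutation p = 1e-05, adjusted p = 2e-05) and rho = 0.49 (permutation p = 0.00046), with r = 0.43 without the 2 farthest and 0.83 and 0.37 within the library groups. Ccr8 was related to the share of T/NK cells (r = 0.71, rho = 0.69, each with a permutation p of 1e-05), with r = 0.67 without the 2 farthest and 0.87 and 0.71 within the library groups. With the cluster 8 share its r of 0.28 missed the threshold (permutation p = 0.0506, adjusted p = 0.0506) while rho was 0.51 (permutation p = 0.00024). Without the 2 farthest tumors r was 0.61, and within the library groups it was 0.06 and 0.30. Ccl1 against the share of clusters 3, 10 and 13 had r = 0.53 (permutation p = 0.00012, adjusted p = 0.000168) and rho = 0.46 (permutation p = 0.00115), with r = 0.49 without the 2 farthest and 0.70 and 0.31 within the library groups. The cells of the cluster are part of both measures in all 7 relations, so some relation is built in and the p-values decide nothing. Fewer cells of a type and less RNA per cell cannot be told apart in a whole-tumor level.

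**Figure D3:**
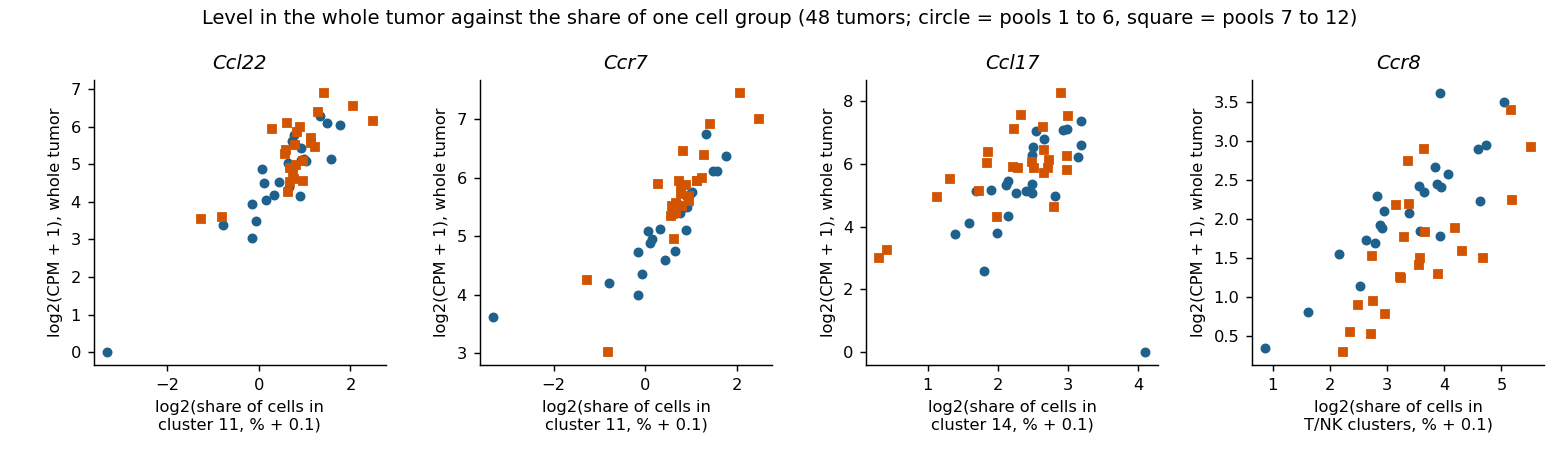
Whole-tumor level against cell share. Each point is 1 of 48 tumors, the x axis is log2 of the share of cells in percent plus 0.1, and the y axis is log2(CPM + 1). Circles are pools 1 to 6 and squares pools 7 to 12. Ccl22 and Ccr7 rise with the cluster 11 share (r of 0.87 and 0.84), and the tumor at the lower left of the Ccl22 panel is the 53-cell tumor.

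The first comparison asked whether the 6 genes differed between responder and non-responder strains. None did at an adjusted p under 0.05 (edgeR's quasi-likelihood test on counts summed per tumor, Benjamini-Hochberg over all genes tested). In the whole tumor 3.2% of 13503 genes were called for class. Ccl17 ran from 5.02 to 189 CPM over the 20 responder tumors and from 16.4 to 308 CPM over the 18 non-responder tumors. Its log2 difference, responder minus non-responder, was -0.62 ± 0.40 (SE, adjusted p = 0.539 by edgeR). The share of cluster 14, its main source, is described with the cell shares. That share was lower in responder tumors past the threshold with isotype and not with aPD1, in tests added after the values were seen. Ccl22 ran from 7.25 to 119 CPM and from 9.40 to 93.8 CPM, with a log2 difference of 0.08 ± 0.30. For Ccr7 the difference was -0.22 ± 0.26, for Ccl1 0.32 ± 0.51 and for Ccr8 0.41 ± 0.34. The ranges of both classes overlapped for every member.

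Within single cell groups no tested member was called for class either. The share of all genes called was 2.23% in the T/NK clusters, 0.166% in cluster 8, 0.434% in cluster 11, 0.659% in cluster 14 and 0.76% in clusters 3 and 13. In cluster 11 the log2 class difference was 0.19 ± 0.15 for Ccl22, -0.08 ± 0.08 for Ccr7 and 0.03 ± 0.28 for Ccl17. In cluster 14 Ccl17 had medians of 287 CPM (responder, aPD1), 306 CPM (responder, isotype), 391 CPM (non-responder, aPD1) and 492 CPM (non-responder, isotype), with a class difference of -0.49 ± 0.31. Ccr8 in cluster 8 differed by -0.25 ± 0.32, and Ccr7 in the T/NK clusters by 0.43 ± 0.25 (unadjusted p = 0.0912, adjusted p = 0.441 by edgeR).

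Ccr4 had too few counts for the fit and was tested by permutation. In cluster 8, 15 Ccr4 UMIs were found over 17 responder tumors and 30 over 18 non-responder tumors. At least 1 UMI was present in 8 of the 17 and in 15 of the 18. Mean log2(CPM + 1) was 1.70 ± 1.91 and 3.34 ± 1.81 (SD), a difference of -1.64 (two-sided permutation p = 0.0147, adjusted p = 0.235 over the 18 permutation tests of members with low counts). Within pools 1 to 5 the difference was -2.13 (permutation p = 0.0103), and within pools 8 to 12 it was -1.04 (exact permutation p = 0.355). The result did not pass the correction, and it rested on 45 UMIs. In the T/NK clusters the difference was -0.89 (permutation p = 0.0261, adjusted p = 0.235), though within pools 8 to 12 the summed level was 3.81 CPM in responder and 3.18 CPM in non-responder tumors. In the whole tumor it was -0.10 (permutation p = 0.397, adjusted p = 0.717). Tumors of a class came from 3 strains, which these permutation tests did not take into account.

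The second comparison asked what a single aPD1 dose had done after 48 hours. No tested member was called in either class, nor for the interaction of class and treatment, in the whole tumor or in any of the 5 cell groups. Members outside the fit had no test of the interaction. Of all genes tested 0% were called in these contrasts, except 0.0139% (1 of 7219 genes) for aPD1 in non-responder strains in the T/NK clusters. At an unadjusted p under 0.05 the whole-tumor fit had 590, 512 and 897 of 13503 genes for responder strains, non-responder strains and the interaction, and DESeq2 called 0, 0 and 1 gene, none of them a member. Ccr8 ran from 0.224 to 6.44 CPM (median 2.63) in responder isotype tumors and from 1.88 to 9.53 CPM (median 3.61) in responder aPD1 tumors. In non-responder tumors it ran from 0.709 to 10.3 CPM (median 2.30) with isotype and from 0.270 to 4.36 CPM (median 1.66) with aPD1. The groups overlapped in both classes. The log2 change with aPD1 was 0.69 ± 0.46 (responder) and -0.86 ± 0.49 (non-responder), and their difference was 1.56 ± 0.67 (unadjusted p = 0.0261, adjusted p = 0.730 by edgeR). Ccr7 changed by 0.58 ± 0.36 and -0.47 ± 0.37, with a difference of 1.05 ± 0.52 (unadjusted p = 0.0504, adjusted p = 0.748 by edgeR). Ccl1 changed by 0.55 ± 0.70 and -1.40 ± 0.75, with a difference of 1.95 ± 1.03 (unadjusted p = 0.0668, adjusted p = 0.774 by edgeR). None passed the correction. Within cell groups the interaction was -0.18 ± 0.65 for Ccr8 in cluster 8, 0.24 ± 0.49 for Ccr8 in the T/NK clusters and -0.04 ± 0.17 for Ccr7 in cluster 11.

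The fitted changes of Ccl17 with aPD1 were below 0 in the whole tumor and in clusters 11 and 14, none past the threshold. The median whole-tumor level of responder tumors ran the other way, 28.2 CPM with isotype and 38.7 CPM with aPD1. Over all cells the log2 change was -0.39 ± 0.55 (responder) and -0.72 ± 0.58 (non-responder). It was -0.55 ± 0.41 and -0.43 ± 0.39 in cluster 11 and -0.69 ± 0.43 and -0.35 ± 0.44 in cluster 14. Ccl22 in cluster 11 changed by -0.15 ± 0.22 and -0.23 ± 0.21, and Ccr7 there by -0.09 ± 0.12 and -0.05 ± 0.12.

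**Figure D4:**
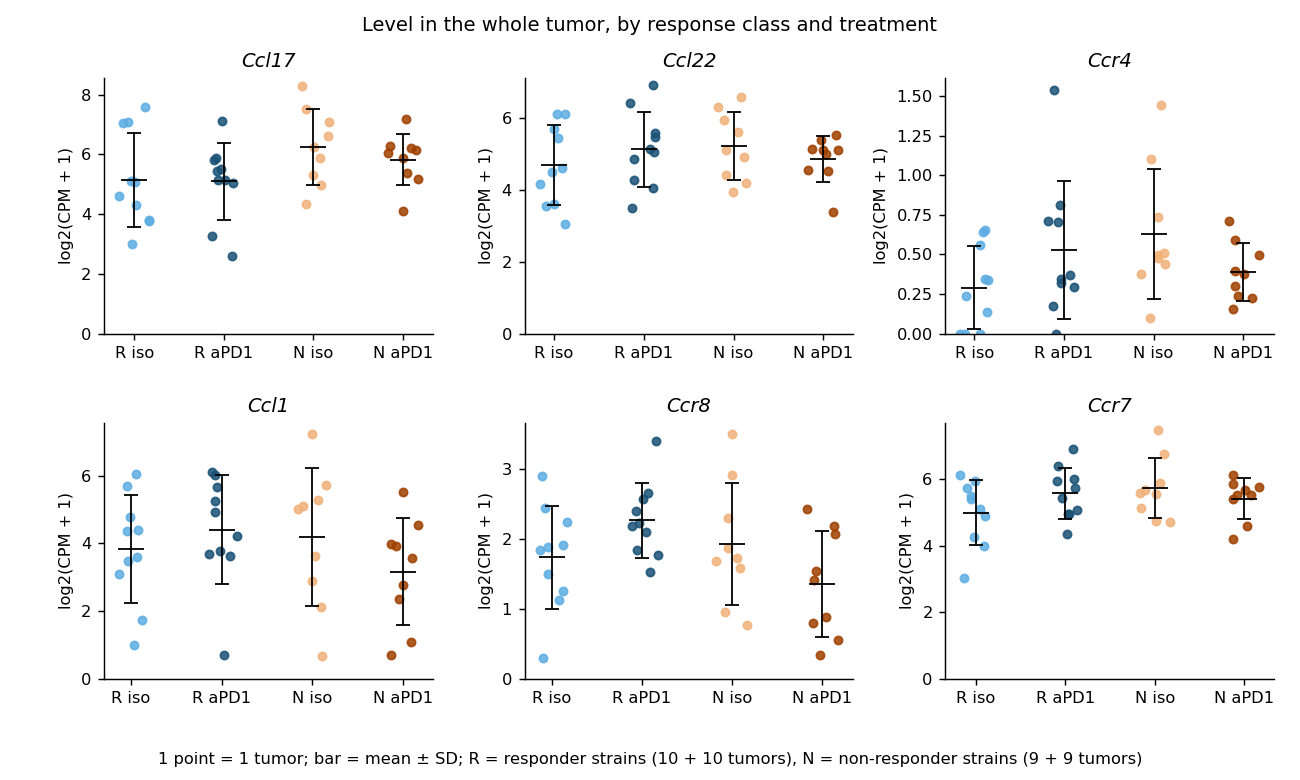
Whole-tumor level of the 6 genes by response class and treatment. Points are tumors (10, 10, 9 and 9), the y axis is log2(CPM + 1), and bars are mean ± SD. R is responder, N non-responder and iso isotype. The groups overlap in every panel.

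The shares of clusters 11 and 8 did not pass the test between classes. After isotype, cluster 11 made up 1.39 ± 0.75% of the cells of responder hosts and 1.77 ± 0.98% of those of non-responder hosts (SD, n = 10 and 9, two-sided exact permutation p = 0.373, adjusted p = 0.746 over 4 share tests), and 1.68 ± 0.62% and 1.61 ± 0.63% in aPD1 tumors (exact permutation p = 0.808, adjusted p = 0.856). Cluster 8 made up 1.87 ± 1.34% and 2.56 ± 1.41% with isotype (exact permutation p = 0.282, adjusted p = 0.746) and 2.37 ± 1.37% and 2.24 ± 1.51% with aPD1 (exact permutation p = 0.856, adjusted p = 0.856). With T/NK cells as the denominator the picture for aPD1 was different. Cluster 8 was then 16.8 ± 8.93% of T/NK cells in responder tumors and 35.7 ± 16.9% in non-responder tumors (n = 10 and 9, exact permutation p = 0.00687, unadjusted), with ranges of 2.44% to 35.0% and 11.1% to 60.8%. Within pools 1 to 5 the values were 21.8% and 48.3% (exact permutation p = 0.0159) and within pools 8 to 12 they were 11.73% and 20.003% (exact permutation p = 0.111). T/NK cells themselves were 15.2 ± 8.94% of all cells after aPD1 in responder hosts and 7.07 ± 3.93% in non-responder hosts. The non-responder strain CC079 had the lowest mean T/NK share of all strains, 4.81% over both treatments. The test did not take strain into account and was not repeated without that strain. With isotype the cluster 8 share of T/NK cells was 15.9% and 23.2% (exact permutation p = 0.238).

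The shares of the main sources of Ccl17 and Ccl1 were tested after their values were seen. The cDC2-like cluster 14 made up 4.44 ± 1.95% of cells in responder and 6.68 ± 1.76% in non-responder tumors with isotype (SD, n = 10 and 9, two-sided exact permutation p = 0.0194, adjusted p = 0.0388 over 4 such tests), and 4.21 ± 1.82% and 5.65 ± 1.68% with aPD1 (exact permutation p = 0.0929, adjusted p = 0.124). With isotype the difference was -1.57 percentage points within pools 1 to 5 (exact permutation p = 0.262) and -2.97 within pools 8 to 12 (exact permutation p = 0.0476). The T cell clusters 3, 10 and 13 combined made up 6.26 ± 4.52% of cells in responder and 1.24 ± 1.05% in non-responder tumors with aPD1 (exact permutation p = 0.000606, adjusted p = 0.00242). The difference was 5.39 percentage points within pools 1 to 5 (exact permutation p = 0.00794) and 4.55 within pools 8 to 12 (exact permutation p = 0.0714). With isotype these clusters made up 7.29 ± 5.82% and 4.39 ± 6.38% (exact permutation p = 0.319, adjusted p = 0.319). The isotype medians were 6.17% and 1.86%, with ranges of 0.527% to 20.2% and 0.292% to 19.6%. The highest non-responder isotype tumor, CC036 of pool 8, had 9.60% of its cells in cluster 10. The study described its cytotoxic T cell clusters as more abundant in responder tumors under either treatment. Clusters 3 and 13 without cluster 10 were not tested for share here. Tumors of a class came from 3 strains, which the share tests did not take into account.

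The third comparison asked whether the members differed between the 8 host strains, whatever their class (F test over strains, adjusted for treatment). Ccl22 and Ccr7 were called in the whole tumor, beside 46.2% of 14364 genes, so 2 of the 5 members tested was near the background. Ccr8 was called in the T/NK clusters beside 25.3% of genes. Ccr8 and Ccl1 were called in cluster 8 beside 7.14%, where Ccl1 had been too sparse for the class fit. No member was called in cluster 11 beside 9.45%, and Ccl17 was called in cluster 14 beside 12.3%. In clusters 3 and 13 no member was called beside 9.98%, though with the pool as a block Ccl1 and Ccr8 were (adjusted p of 0.00734 and 0.0172 by edgeR). All these calls but that of Ccl1 were lost with the pool as a block, and all 6 with library group (pools 1 to 6 or 7 to 12) as a term. The values follow.

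Ccr8 in Treg-like cells had the lowest adjusted p of the strain calls. In cluster 8 it ran from 85.3 to 196 CPM in the 6 CC079 tumors, from 50.1 to 205 CPM in the 8 CC001 tumors and stood at 114 and 118 CPM in the 2 CC007 tumors. It ran from 17.3 to 178 CPM in 6 CC080 tumors, from 30.2 to 58.3 CPM in 5 CC002 tumors, from 0 to 88.1 CPM in 6 CC036 tumors, from 0 to 59.6 CPM in 5 B6 tumors and from 13.6 to 30.0 CPM in 4 CC075 tumors. No CC075 tumor reached the lowest CC079, CC001 or CC007 tumor. Means ± SD were 120 ± 52.8 in CC001, 117 ± 41.0 in CC079, 93.5 ± 61.9 in CC080, 52.1 ± 32.1 in CC036, 52.0 ± 12.3 in CC002, 39.6 ± 24.2 in B6 and 22.1 ± 8.61 in CC075. CC001, CC079 and CC007 did not differ beyond their spread, nor did CC036, CC002 and B6. The range of fitted strain levels was 2.50 on the log2 scale (adjusted p = 0.00203 by edgeR, 0.00016 by DESeq2), and the call held without any single pool (adjusted p 0.000782 to 0.02995). High and low strains were found in both classes.

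Library group moved with this result. Among strains run in both groups, mean Ccr8 in cluster 8 was higher in pools 1 to 6 than in pools 7 to 12 in 3. These were CC001 (132 and 84.9 CPM), CC080 (125 and 29.6 CPM) and B6 (57.7 and 27.5 CPM). CC002 had a mean of 57.5 CPM in pools 1 to 6 and 1 tumor at 30.2 CPM in pools 7 to 12. CC007 had 1 tumor in each group, at 114 and 118 CPM, the latter from 7 UMIs in 10 cells. With library group as a term the strain range fell to 1.63 and the adjusted p rose to 0.121 by edgeR, and with the pool as a block it was 0.172. CC075 was run only in pools 7 to 12, where its mean was 22.1 CPM, from 12 UMIs in 100 cells. B6, CC080 and CC002 were nearly as low in those pools, while CC036 (mean 52.1 CPM), CC001 and CC007 were higher. Within pools 1 to 6 CC002 (4 tumors, 55.6 to 58.3 CPM) lay below all 6 CC001, all 6 CC079 and all 4 CC080 tumors. Median depth in cluster 8 was 1299.5 UMIs per cell in pools 1 to 6 and 1793.5 in pools 7 to 12. The summed level of all 7 Treg markers in cluster 8 was also lowest in CC075, with a median of 1962 CPM against 4018 to 6550 CPM elsewhere, and Foxp3 had medians of 63.8 CPM in CC075 and 368 CPM in CC079. The order of the other strains was not that of Ccr8, since the Treg markers had a median of 6128 CPM in CC002 and 4883 CPM in CC001. The CD8 markers had medians of 17.7 CPM in CC079 and 494 CPM in CC075, and the 7 macrophage markers 198 and 54.5 CPM. Their part in the Ccr8 result was not tested. In the T/NK cells outside cluster 8 strain means of Ccr8 lay between 18.6 and 32.9 CPM. The Ccr8 call in the whole T/NK set (range 1.63, adjusted p = 0.0239 by edgeR) was lost without pool 1, 2, 8 or 9 (adjusted p up to 0.158), and was 0.385 with library group and 0.770 with the pool block.

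Ccl1 in cluster 8 came from few cells. It was too sparse for the class fit there and entered the strain fit because the filter follows the smallest group, CC007. A few high tumors were enough to pass that filter, so no strain difference is read from its call. A single cell of the CC079 isotype tumor of pool 5 held 284 of the 710 UMIs (40%), 2 cells of the CC001 aPD1 tumor of pool 4 held 129, and 3 cells of the CC075 aPD1 tumor of pool 9 held 117. The other 5 CC079 tumors had no Ccl1 UMI in the cluster, and that strain ran from 0 to 2214 CPM. The strain call (adjusted p = 0.0435 by edgeR) was 0.318 by DESeq2, 0.122 with library group and 0.00511 with the pool block, and was lost without pool 3, 5, 6, 8, 9, 10 or 12 (adjusted p up to 0.182). The 39 Ccl1-positive cells of cluster 8 had a median of 12054 UMIs against 1360 in the rest, and Foxp3 in 20.5% against 38.9%. Whether they were single Treg was not tested.

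Ccl1 in the CD8-like cluster 13 was low in CC075 tumors, a pattern picked after its values were seen and given without a test. The 4 CC075 tumors with at least 10 cluster 13 cells stood at 0, 10.4, 12.7 and 18.6 CPM. The 19 tumors of 6 other strains with as many cells ran from 145 to 12963 CPM (median 1968). The 2 sets did not overlap. No CC079 tumor had enough cells to be set beside them, and 3 of the 17 CC079 cells of the cluster held a Ccl1 UMI. Over all 130 CC075 cells of the cluster there were 4 Ccl1 UMIs in 3 cells (2.31%), and 148 of 501 cells in the other strains held one (29.5%). These shares are over cells, which are no replicates of a strain. Median depths were 3057 and 2469 UMIs. In the same pools the CC036 tumor of pool 10 stood at 2679 CPM and the CC080 tumor of pool 11 at 2788 CPM. In the same CC075 cells Xcl1, which encodes lymphotactin, ran from 483 to 1223 CPM against 1498 to 30328 CPM elsewhere. Ifng had medians of 5382 and 4700 CPM, Ccl3 of 6677 and 5525 CPM and Cd8a of 440 and 481 CPM, and the ranges of all 3 overlapped. Il2 had a median of 59.7 CPM (43.1 to 453) in CC075 and 682 CPM (0 to 3283) elsewhere, and Csf2, which encodes GM-CSF, 7.81 CPM (0 to 130) and 65.3 CPM (0 to 2069), and both ranges overlapped as well. Tnfsf11 had medians of 90.5 CPM (31.2 to 186) and 123 CPM (0 to 486), and Ccl4 of 34671 and 25647 CPM, with ranges that overlapped too. CC075 tumors were not without Ccl1, since 670 UMIs were read in all, 36.9% of them in cluster 10, 24.3% in cluster 3 and 20.3% in cluster 8. Clusters 3 and 13 combined include these cells and were added after seeing the data, so their strain test is no test of this pattern. For Ccl1 that strain test had an adjusted p of 0.0714 by edgeR, and 0.00734 with the pool block. It passed the threshold without pool 3, 6, 8 or 10 (adjusted p of 0.0298, 0.04996, 0.0339 and 0.0153), and did not on leaving out any other pool.

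Ccl17 in the cDC2-like cluster 14 had its lowest strain mean in CC001. It ran from 50.02 to 349 CPM in the 8 CC001 tumors (mean 210 ± 103), from 214 to 492 CPM in 6 CC079 tumors (340 ± 110), and from 761 to 837 CPM in 3 CC007 tumors (812 ± 43.8). Means in the other strains were 515 (CC075), 521 (B6), 527 (CC002), 657 (CC036) and 710 (CC080), each with an SD of 209 to 544. CC001 and CC007 tumors did not overlap. The single highest tumors were CC080 at 1771 CPM and CC075 at 1556 CPM. The strain call (range 1.91, adjusted p = 0.0317 by edgeR, 0.0439 by DESeq2) became 0.0826 with library group and 0.514 with the pool block, and was lost without pool 1, 2, 5, 7 or 12 (adjusted p 0.00747 to 0.178 over the 12 pools left out). CC001 was low in both library groups, at 203 CPM in pools 1 to 6 and 231 CPM in pools 7 to 12. The summed macrophage markers of the cluster were highest in the same strain, with a median of 3879 CPM in CC001 against 1453 to 3486 CPM elsewhere, and the 5 cDC2 markers stood at a median of 889 CPM against 779 to 1579. The 7 migratory DC markers had medians of 348 CPM in CC079 and 358 CPM in CC001 against 438 to 802 CPM in the other strains. Their part was not tested. Ccl22 in the same cluster had an adjusted p of 0.190.

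**Figure D5:**
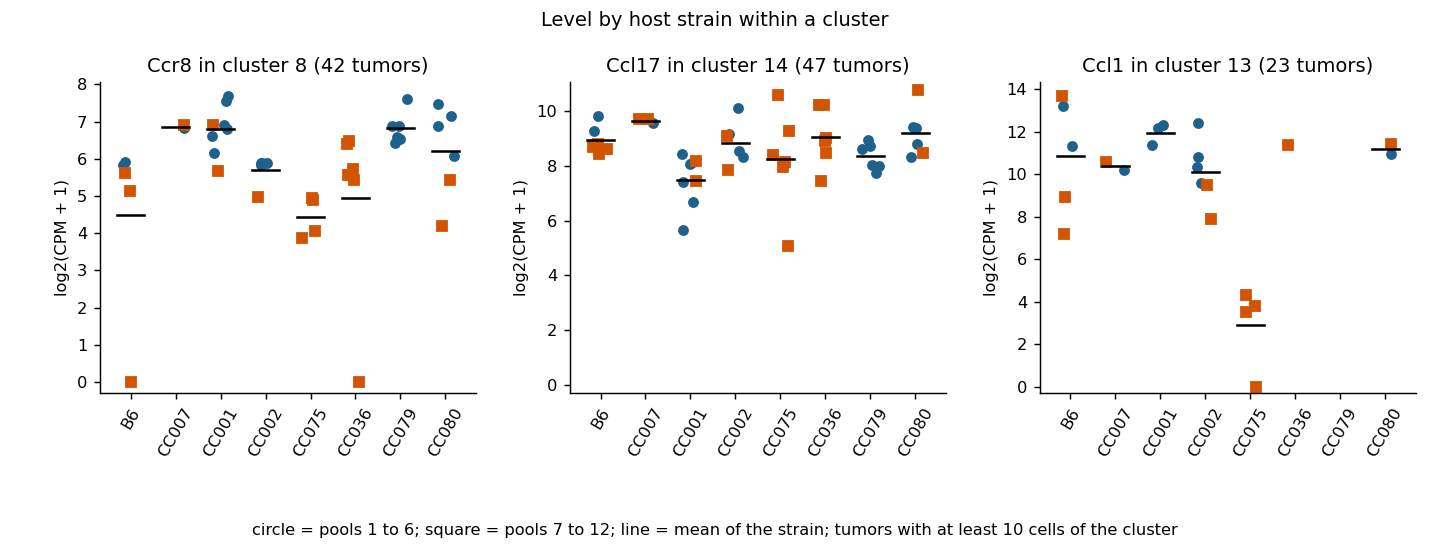
Ccr8, Ccl17 and Ccl1 by host strain. Points are tumors with at least 10 cells of the cluster, the y axis is log2(CPM + 1), circles are pools 1 to 6, squares pools 7 to 12, and lines are strain means. Ccr8 in cluster 8 is low in CC075, and in pools 7 to 12 also in B6, CC002 and CC080. Ccl17 in cluster 14 is low in CC001, and the 4 CC075 tumors lie below the other 19 for Ccl1 in cluster 13.

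The whole-tumor strain calls of Ccl22 (range 1.53, adjusted p = 0.0418 by edgeR) and Ccr7 (range 1.30, adjusted p = 0.0460) were each lost on leaving out any of 8 pools (1, 2, 3, 4, 6, 7, 11 and, for Ccl22, 9 or, for Ccr7, 8), with adjusted p up to 0.219 and 0.205. With library group they were 0.175 and 0.215, and with the pool block 0.706 and 0.642. Ccl22 was lowest in CC001 (median 16.3 CPM, 7.25 to 43.1) and CC079 (19.6 CPM, 9.40 to 48.1), and so was Ccr7 (29.2 and 29.5 CPM). These strains also had the lowest cluster 11 medians among the strains, 0.994% and 1.20% of cells. Within cluster 11, strain means lay between 1631 and 2311 CPM for Ccl22, 2327 and 2774 CPM for Ccr7 and 745 and 1308 CPM for Ccl17, and no strain difference was called (adjusted p of 0.429, 0.820 and 0.693 by edgeR).

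Other genes of these pathways were read from fixed lists in the same fits. For class in the whole tumor, 3 of 29 tested chemokine genes were higher in responder strains and 1 lower, beside 3.2% of all genes called in either direction. Cxcl13, a B cell attractant, was higher by 4.40 ± 0.77 on the log2 scale (adjusted p = 0.000395 by edgeR), Cxcl9, a ligand of CXCR3, by 1.101 ± 0.222 and Cxcl16, the ligand of CXCR6, by 0.32 ± 0.09. Ccr2, a monocyte receptor, was lower (-0.51 ± 0.13). The list's median was 0.03 and that of all genes -0.0034. Each class held 3 strains, which the class fits in all cell groups did not take into account. Cxcl13 also differed between the host strains (range 7.35 on the log2 scale, adjusted p = 1.11e-07 by edgeR). Of 22 Treg genes 1 was higher (Entpd1, which encodes CD39, 0.55 ± 0.14), and of 27 DC maturation genes none was called. In the T/NK clusters 1 of 18 chemokine genes was higher (Ccl4, 1.20 ± 0.29) and 2 were lower (Cxcr4, -1.03 ± 0.25, and Ccr2, -0.85 ± 0.17), beside 2.23% of all genes called in either direction. Of 21 Treg genes Nrp1 was higher (0.67 ± 0.18) and Itgae, which encodes CD103, was lower (-1.56 ± 0.42). Of 20 DC maturation genes 2 were lower (Ebi3, -1.12 ± 0.28, and Tmem123, -0.34 ± 0.08). The Treg-like cluster 8 made up 16.8% of T/NK cells in responder and 35.7% in non-responder tumors with aPD1, and 15.9% and 23.2% with isotype. The part of this make-up in the T/NK calls was not tested. In clusters 8, 11, 14 and in clusters 3 and 13 none of the 3 lists had a gene called for class, beside 0.166% to 0.76% of all genes. No listed gene was called for treatment or the interaction in any cell group. Between strains in cluster 8, 10 of 20 Treg genes were called beside 7.14% of all genes. Among them were Il10 with a range of 4.98 on the log2 scale and Tnfrsf4, the OX40 gene, with 2.78. Other markers of the cluster moved with strain too, with median CD8 markers of 494 CPM in CC075 and 17.7 CPM in CC079. Foxp3 had medians of 63.8 and 368 CPM there, and the part of make-up was not tested. The lists were read in the main fit alone, without library group or pool block. Between strains in cluster 11, 1 of 26 DC maturation genes was called (Nfkb1, range 0.82), beside 9.45% of all genes tested. In cluster 14, 9 of 21 were called, among them Il4i1 (3.08) and Cd274, which encodes PD-L1 (1.58), beside 12.3% of all genes tested. Calls over all genes fell from 329 to 115 with library group and 53 with the pool block in cluster 8, from 335 to 111 and 30 in cluster 11, and from 1030 to 543 and 234 in cluster 14.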

How the data were processed

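RNA from single cells of 12 pooled 5′ libraries (48 tumors, told apart by hashtags) had been counted by the authors with Cell Ranger on GRCm38 and clustered with Seurat 5.0.1 after removal of cells high in mitochondrial or ribosomal reads. The authors deposited raw counts of UMIs per gene and cell, not normalized, with a table of each cell's tumor and cluster. Their clusters were used as given and named only from fixed marker lists, and no doublet caller was run here. Counts were summed over the cells of each tumor, since the tumor is the replicate, in the whole tumor, the T/NK clusters and single clusters (tumors with at least 10 cells). The response class is the study's and is not in the sample labels.

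Summed counts were tested with edgeR 4.0.16 in R 4.3.3 (filterByExpr, TMM, quasi-likelihood F test, Benjamini-Hochberg over all genes tested, threshold 0.05). SE is the log2 fold divided by the root of F. Members too sparse for the filter were compared by two-sided permutation tests on log2(CPM + 1) if they had at least 50 UMIs. Cell shares were compared by the same tests on percent (scipy 1.17.1). The tests were exact where enumeration was feasible and otherwise used 100000 permutations. Intervals are 95% exact Poisson or binomial and cover counting error only. The fit was tested on simulated data with known folds. Alternatives were DESeq2 1.42.0, library size alone, no filter, library group as a term, the pool as a block, each pool left out, other cell minimums and pseudocounts. Tumors of a pool share 1 library, which is where the pairing comes from. All 6 members were named in each comparison, and other genes only from the fixed lists. Exceptions were Xcl1, Ifng, Ccl3, Ccl4, Cd8a, Il2, Csf2 and Tnfsf11 in cluster 13, taken after values were seen. The members and lists were chosen with earlier results of these data known. Fits in cluster 14 and in clusters 3 and 13, with their alternatives (not all of those above), the share tests of cluster 14 and of clusters 3, 10 and 13, and the CC075 pattern in cluster 13, were added after seeing the data.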

Additional observations from a re-analysis of the deposited data

Results flagged for a closer look

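Single tumors stood apart from their group in 11 of the 76 groups examined, by the gap to the nearest other tumor relative to the whole range, where chance gives about 1 in 20. On the log2(CPM + 1) scale, the unclassed aPD1 tumors had a lowest value of 0 for Ccl17, 0 for Ccl22 and 3.62 for Ccr7, all in the CC007 tumor of pool 6 with 53 cells, in which Ccr7 rested on 1 UMI. The lowest Ccl22 value among non-responder aPD1 tumors was 3.38 (CC079, pool 2, 2301 cells). The highest Ccr4 value among responder aPD1 tumors was 1.54 (CC075, pool 9, 14 UMIs), and the lowest Ccl1 value was 0.71 (CC075, pool 11, 4 UMIs). Cluster 11 made up 4.08% of cells in the CC036 isotype tumor of pool 8, the highest of 9 non-responder isotype tumors, and 5.51% in the B6 isotype tumor of pool 7 (345 cells), the highest of 5 unclassed isotype tumors. For Ccr8 in cluster 8 the lowest tumors stood at 0 in B6 (aPD1, pool 8, 12 cells), at 0 in CC036 (isotype, pool 8, 32 cells) and at 4.96 in CC002 (aPD1, pool 12, 11 UMIs).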

How the results depend on the processing

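Of 1260 alternative values of single-member folds, 1186 kept their direction and 74 reversed, none of the reversed ones past the threshold in the fits reported. The causes were not tested. Between strains, 2 members were called in the whole tumor, and 0 without the filter on low counts, 0 with library group as a term, 0 with the pool block, 1 without tumors of under 500 cells and 0 to 3 on leaving out a pool. In the T/NK clusters 1 was called, and 3 without the filter, 0 with library group, 0 with the block and 0 to 2 on leaving out a pool. In cluster 8, 2 were called, and 0 with library group, 1 with DESeq2, the block, at least 20 cells per tumor or without the CC080 pair of 1 animal identifier, and 1 to 2 on leaving out a pool. In cluster 11, 0 became 2 without the filter. In cluster 14, 1 became 0 with library group, 0 with the block and 0 to 1 on leaving out a pool. In clusters 3 and 13, 0 became 2 with the block and 0 to 1 on leaving out a pool (Ccl1 without pool 3, 6, 8 or 10, and Ccr7 without pool 11, adjusted p = 0.0475 by edgeR). Without the filter Ccl1 was called in cluster 8 in all class and treatment contrasts (1 member each), while permutation tests of the same level had p = 0.854 for class, an exact p = 0.539 for aPD1 in responders and an exact p = 0.778 in non-responders, and 1 cell held 284 of the 710 UMIs. All other calls for class and treatment stayed at 0, also with the pool block.

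Folds that reversed were, with the pool block, Ccl1 in T/NK clusters for class (0.091) and for aPD1 in non-responders (-0.27), Ccr8 in cluster 8 for aPD1 in non-responders (0.18), and in clusters 3 and 13 Ccr7 for aPD1 in responders (0.040) and Ccl1 for aPD1 in non-responders (-0.50). Others were Ccr8 for aPD1 in non-responders in T/NK clusters (-0.045 with DESeq2, -0.027 unfiltered) and in cluster 8 (0.12 with library group, 0.080 without the CC080 pair), the Ccr8 interaction in cluster 8 unfiltered (0.048), Ccl17 for class in cluster 11 without the CC080 pair (-0.036), Ccr7 in cluster 11 for aPD1 in responders (0.013 unfiltered, 0.087 with at least 20 cells) and for the interaction (0.054 and 0.17), Ccr7 for class in cluster 14 with DESeq2 (0.27), and Ccr4 in cluster 8 for aPD1 in non-responders with a pseudocount of 5 (0.034).

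Leaving out a pool reversed Ccl1 in T/NK clusters (class -0.51 to 0.14, aPD1 in responders -0.054 to 0.77, in non-responders -0.68 to 0.53, interaction -0.31 to 0.84) and in the whole tumor (class -0.046 to 0.89), Ccl17 in the whole tumor (aPD1 in responders -0.88 to 0.13, interaction -0.17 to 0.71) and cluster 11 (class -0.058 to 0.26, interaction -0.50 to 0.26), Ccl22 in the whole tumor (class -0.015 to 0.29) and cluster 11 (aPD1 in responders -0.25 to 0.048, interaction -0.17 to 0.30), Ccr7 for aPD1 in responders in T/NK clusters (-0.094 to 0.39) and cluster 11 (-0.13 to 0.024, interaction -0.092 to 0.029), Ccr8 for aPD1 in non-responders in T/NK clusters (-0.21 to 0.27), Ccr8 in cluster 8 (aPD1 in responders -0.50 to 0.031, in non-responders -0.20 to 0.22, interaction -0.49 to 0.081), in cluster 14 Ccl22 (class -0.11 to 0.31, interaction -1.05 to 0.037), Ccr7 (class -0.74 to 0.011) and Ccl17 (aPD1 in non-responders -0.74 to 0.053, interaction -0.79 to 0.048), and in clusters 3 and 13 Ccr7 (aPD1 in responders -0.53 to 0.25) and Ccl1 (aPD1 in non-responders -0.70 to 0.80, interaction -0.19 to 1.33).

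The class difference in cell shares reversed in percentage points for cluster 8 with aPD1 in pools 8 to 12 (-0.0244), without CC002 (-0.42), CC036 (-0.16) or CC079 (-0.17) and as a share of T/NK cells (-18.9). It reversed for cluster 11 with isotype in pools 1 to 5 (0.12) and as a share of dendritic clusters (1.22), and for cluster 11 with aPD1 in pools 1 to 5 (-0.44), without CC075 (-0.12) or CC079 (-0.15) and with the pool block (-0.0488). In pools 8 to 12 the last was 0.59 (exact permutation p = 0.0397). Calls over all genes between strains fell with library group and with the block, from 6635 to 2534 and 1096 in the whole tumor, 2138 to 820 and 629 in T/NK clusters, 329 to 115 and 53 in cluster 8, 335 to 111 and 30 in cluster 11, 1030 to 543 and 234 in cluster 14, and 539 to 187 and 232 in clusters 3 and 13. For class, 161 calls in T/NK clusters became 296 and 301, and without the filter 5 in cluster 8 became 107 and 12 in cluster 11 became 115. Sparse counts limit Ccr4 (161 UMIs) most.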
